A study of Homo sapiens with 8 samples.

Results

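The genes of nucleotide synthesis make the building blocks of RNA and DNA. The 32 genes described here were chosen by name, as enzymes of purine, pyrimidine and deoxynucleotide synthesis, the kinases that charge nucleotides, the enzymes that clean the deoxynucleotide pool, and 3 folate enzymes that supply one-carbon units. All 32 were found among the 52576 genes of the table, and 31 of them were among the 13979 genes tested. NME1, a nucleoside diphosphate kinase gene, was listed at 0 in all 8 libraries and could not be tested. The readthrough gene NME1-NME2, which shares its exons, was listed at 0 in 7 of the 8 libraries, so no level of NME1 can be given.

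RNA was measured in NCI-H2009, an established cell line from a human lung adenocarcinoma, by sequencing of poly(A)-selected RNA. All cells, controls included, carried dCas9-KRAB, a fusion of cleavage-dead Cas9 with the KRAB repressor domain, given by transfection. On top of it 2 libraries had no guide RNA (labelled Empty), 2 had a guide that matches no human site (labelled Dummy, here the non-targeting guide), 2 had e3 #1 (guide 1) and 2 had e3 #2 (guide 2), both directed at the enhancer e3. The labels give neither separate cultures for the replicates, nor clonality, nor the share of cells that took up a guide. Where the 4 groups were kept apart in a model, the p-values therefore rest on the spread between libraries of a group. That spread may be technical. Where both guides or both controls were pooled, the spread also holds differences between the pooled groups. The epithelial genes EPCAM, KRT8 and KRT18 were high in every library (lowest 211.0, 422.6 and 402.6 RPKM, read counts scaled to gene model length and depth). Of the lung lineage markers NKX2-1 lay between 23.2 and 43.2 RPKM, NAPSA between 0.306 and 1.30 RPKM, and the surfactant genes SFTPC, SFTPA1 and SFTPD were listed at 0 throughout. Inferred depth ran from 3875080 to 5754470 reads a library. MYC, the gene this enhancer is known to act on, had 72.7 to 90.1 RPKM in the 4 control libraries and 36.2 to 43.4 RPKM in the 4 e3 libraries.

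Purine synthesis builds the ring step by step on phosphoribosyl pyrophosphate (PRPP) and ends in IMP, which is then turned into AMP or GMP. Pyrimidine synthesis makes the ring first, attaches it to PRPP and ends in UTP and CTP. Ribonucleotide reductase turns ribonucleotides into deoxynucleotides, and thymidylate synthase makes the thymidine nucleotide with a folate as methyl donor. Many of these genes are known in other cells as targets of MYC, which with its partner MAX binds the E-box CACGTG. Several of the deoxynucleotide genes, though not all, are known to peak in S phase.

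PPAT encodes the amidotransferase that commits PRPP to purine synthesis, and PAICS encodes the enzyme of a later pair of steps. In RefSeq (GRCh38.p14) PPAT has 1 promoter window (250 bases before to 50 after the start) and PAICS has 3. Only 1 of the 3 PAICS windows holds the E-box CACGTG (a palindrome, so both strands are searched at once). The start of that window lies 137 bases from the PPAT start, on the opposite strand of chromosome 4. This window and the PPAT window share 236 bases and hold the same single E-box. It lies 182 bases before the PPAT start and begins at base 41 of the transcript from that PAICS start. ATIC, the gene of the last ring-closing enzyme, has 2 E-boxes, one beginning 46 bases before its start and one at base 30 of its transcript. GART, whose protein carries 3 activities of the ring pathway, has none in its 3 windows, 1 of which is shown. The windows of PPAT (chr4:56435566-56435865, minus strand), ATIC (chr2:215311809-215312108, plus strand) and GART (chr21:33542840-33543139, minus strand) are shown because these 3 ring genes were lower with the e3 guides, with the E-box in capitals.
PPAT: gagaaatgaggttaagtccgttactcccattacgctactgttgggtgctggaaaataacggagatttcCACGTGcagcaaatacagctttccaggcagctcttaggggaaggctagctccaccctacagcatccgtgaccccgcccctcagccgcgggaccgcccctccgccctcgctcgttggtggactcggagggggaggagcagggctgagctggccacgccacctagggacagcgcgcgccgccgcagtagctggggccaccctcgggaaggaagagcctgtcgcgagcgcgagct
ATIC: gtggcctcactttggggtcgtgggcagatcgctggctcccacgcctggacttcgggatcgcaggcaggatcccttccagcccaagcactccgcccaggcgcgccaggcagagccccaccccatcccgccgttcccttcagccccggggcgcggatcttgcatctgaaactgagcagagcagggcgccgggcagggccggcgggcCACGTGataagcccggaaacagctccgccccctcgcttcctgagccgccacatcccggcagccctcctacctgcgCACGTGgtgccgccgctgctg
GART: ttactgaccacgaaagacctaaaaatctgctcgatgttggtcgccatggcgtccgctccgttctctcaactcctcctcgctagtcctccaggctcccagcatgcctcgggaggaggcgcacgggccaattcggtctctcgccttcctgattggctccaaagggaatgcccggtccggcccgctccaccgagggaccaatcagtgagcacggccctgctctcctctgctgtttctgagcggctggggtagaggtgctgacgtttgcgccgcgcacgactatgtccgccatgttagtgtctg

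Of the 29 members with a RefSeq window, 9 (31%) held CACGTG in at least one window, against 12.7% of the 8550 tested genes with a window. These were PPAT, PAICS, ATIC, DHODH, NME1, DCTPP1, NUDT1, MTHFD1 and MTHFD1L. Of the 8 of them that were tested, 2 were called lower with the e3 guides than in the controls, beside 2.58% of all genes tested, and 3 lower than with the non-targeting guide, beside 3.54%. PPAT and PAICS, both among those 3, hold the same E-box, and NME1 of the 9 was not a tested gene. Of the 20 tested members whose windows lacked the motif, GART was called lower in both comparisons. The letters TTTCCCGC or TTTGGCGC, common forms of the E2F motif on either strand, were in windows of 4 members, PRPS2, GART, TYMS and DUT (13.8%), against 4.75% of tested genes. ADSL, IMPDH2 and RRM2B had no entry.

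Against both controls together, PPAT, GART and ATIC of the purine ring pathway and IMPDH2 of the branch to GMP were lower with the e3 guides. No member was called higher in that comparison. Over the 4 e3 and the 4 control libraries, 4 of the 31 members tested were called and all 4 were lower (limma, adjusted p under 0.05), beside 5.2% of all genes tested that were called, 2.58% lower and 2.63% higher. The median change of the 31 members was -0.11 on the log2(RPKM + 1) scale, and that of all genes tested was -0.02. Over the 6 ring genes the median was -0.27, and all 6 had a negative change, but only 3 passed.

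PPAT stood at 25.1 and 24.2 RPKM without a guide, and at 27.4 and 24.2 RPKM under the non-targeting guide. With guide 1 it stood at 15.7 and 17.3 RPKM and with guide 2 at 19.4 and 16.2 RPKM. Every e3 library lay below every control library, as in 7.51% of genes tested. PPAT fell by 0.53 ± 0.08 (SE), from a control mean of 25.2 ± 1.53 to 17.2 ± 1.64 RPKM (SD, n = 4 each), a ratio of 0.680 (limma, adjusted p = 0.0106). Between 271 and 519 inferred reads lay behind each value.

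GART stood at 29.2 and 29.3 RPKM without a guide, and at 33.4 and 33.0 RPKM under the non-targeting guide. It stood at 21.1 and 23.7 RPKM under guide 1 and at 22.7 and 22.5 RPKM under guide 2. The groups again did not overlap, and GART fell by 0.46 ± 0.07 (limma, adjusted p = 0.0113), its mean reaching 0.719 of that in the controls. The falls of PPAT and GART passed in each of the 8 fits that left out 1 library, with adjusted p between 0.0209 and 0.0427 for PPAT and between 0.0237 and 0.0467 for GART. With the mean of each group as 1 sample neither passed (limma, adjusted p = 0.407 for each), and 1 gene was called in all.

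ATIC stood at 61.3 and 59.8 RPKM without a guide, at 66.7 and 65.6 RPKM under the non-targeting guide, at 52.5 and 54.4 RPKM under guide 1 and at 47.6 and 52.6 RPKM under guide 2. It fell by 0.29 ± 0.07 without overlap between the groups (limma, adjusted p = 0.0384). This call was lost whichever of the 8 libraries was left out (adjusted p between 0.0523 and 0.112). The change itself stayed between -0.31 and -0.25.

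For the other 3 ring genes the values depended on the control. PAICS stood at 114.8 and 108.0 RPKM without a guide, and at 142.5 and 141.6 RPKM under the non-targeting guide. Its e3 values of 118.2 and 119.9 RPKM (guide 1) and 105.7 and 103.9 RPKM (guide 2) lay around the no-guide level and below the non-targeting one. ADSL, the gene of adenylosuccinate lyase, had 25.5 and 26.4 RPKM without a guide, 30.8 and 33.4 RPKM under the non-targeting guide and 21.2 to 26.2 RPKM in the e3 libraries. PFAS, the gene of the glutamine-using step before ring closure, had 12.7 and 11.3, then 13.8 and 16.4, and 10.2 to 11.8 RPKM in the same groups. Against both controls together these 3 did not pass (changes of -0.17, -0.26 and -0.25, adjusted p = 0.361, 0.177 and 0.225, limma).

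**Figure D1:**
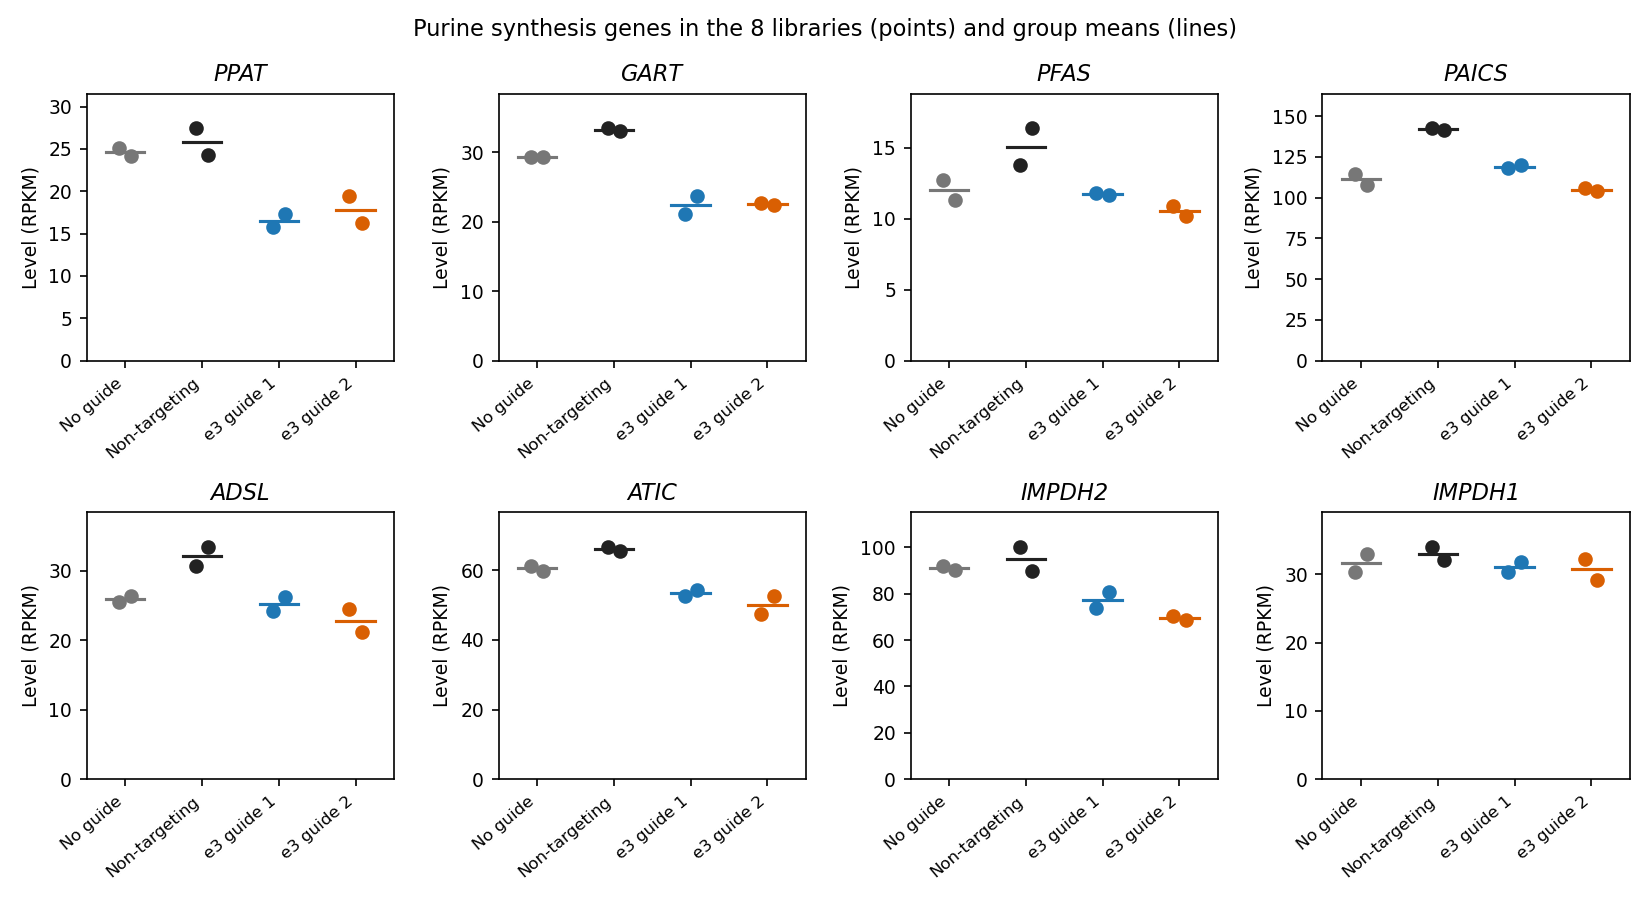
RPKM levels (y axes, from 0) of 8 purine genes in the 4 groups, 1 point per library and a line at each group mean. All e3 points of PPAT, GART, ATIC and IMPDH2 lie below all control points, whereas the e3 points of PAICS, PFAS and ADSL overlap the no-guide points and lie below the non-targeting ones.

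Against the non-targeting guide alone, 5 of the 6 ring genes and IMPDH2 were lower. These 6 were the members called of the 31 tested, beside 6.84% of all genes tested that were called, 3.54% lower and 3.3% higher. GART fell by 0.55 (adjusted p = 0.00843), PPAT by 0.56 (0.0206), ATIC by 0.35 (0.0245), PAICS by 0.34 (0.0304), IMPDH2 by 0.36 (0.0366) and ADSL by 0.41 (0.0433), all adjusted p from limma on 6 libraries. PFAS had a change of -0.40 and did not pass (adjusted p = 0.0647). In all 6 ring genes the 4 e3 libraries lay below both non-targeting libraries, as in 16.3% of genes tested. With either non-targeting library left out none of the 31 members was called (6 and 15 genes in all), and without the first or second library of guide 2 the count was 3 and 2.

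Against cells without a guide the ring pathway was less uniform. PPAT fell by 0.50 (limma, adjusted p = 0.0115) and GART by 0.37 (adjusted p = 0.0137), while ATIC had -0.23 (0.0619), ADSL -0.11 (0.47), PFAS -0.10 (0.557) and PAICS 0.01 (0.974). In this comparison 8 members were called, 4 lower and 4 higher, beside 16.7% of all genes tested, with 8.03% lower and 8.68% higher. Besides PPAT and GART, IMPDH2 (-0.31) and the folate gene SHMT1 (-0.51) were lower, and PRPS1 (0.34), GUK1 (0.40), RRM2 (0.36) and SAMHD1 (0.68) were higher. With either no-guide library left out 2 members remained called, PRPS1 and SAMHD1. Without the first library of guide 2, IMPDH2 and GUK1 lost the call and 6 members were called.

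**Figure D2:**
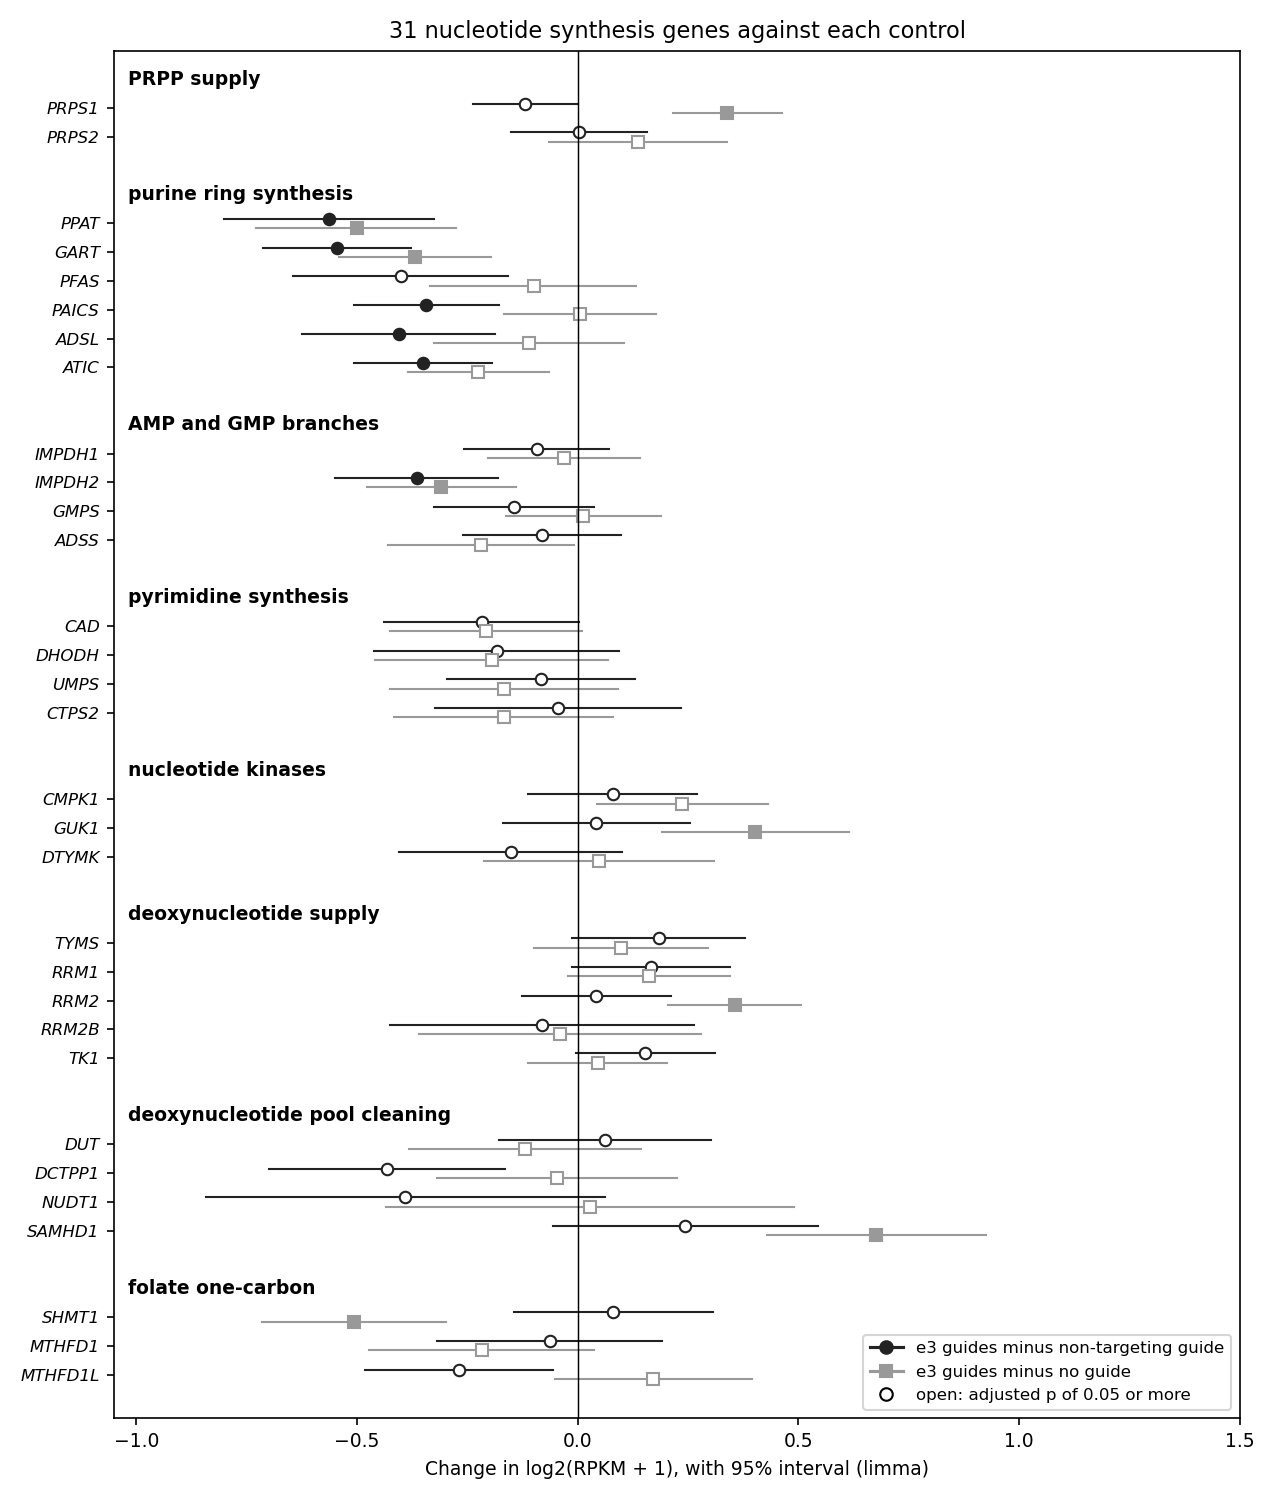
Change in log2(RPKM + 1) (x axis) of the 31 tested members, ordered by step, for the e3 guides minus the non-targeting guide (circles) and minus no guide (squares), with 95% intervals from limma. Filled symbols passed an adjusted p of 0.05, and PPAT, GART and IMPDH2 are filled on the left in both comparisons, while PRPS1, GUK1, RRM2 and SAMHD1 are filled on the right only against no guide.

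The controls were also compared with each other, and of the ring genes PAICS differed. With the non-targeting guide all 6 ring genes had a positive change against no guide, from 0.06 for PPAT to 0.35 for PAICS, and PAICS passed (limma, adjusted p = 0.00296). In all 5 members were called between the controls, 4 higher and 1 lower, beside 12.4% of all genes tested, with 6.55% higher and 5.81% lower. PRPS1 (0.46), RRM2 (0.31) and MTHFD1L (0.44) were the other 3 that were higher with the non-targeting guide, and SHMT1 (-0.59) was lower. RRM2 and MTHFD1L lost the call whichever of these 4 libraries was left out (adjusted p between 0.0503 and 0.21, and between 0.0575 and 0.115). SHMT1 lost it without the second non-targeting library (adjusted p = 0.0552). MYC was higher with the non-targeting guide as well (0.28, adjusted p = 0.0133), and of the 4 fits that left out 1 library this call passed only in the one without the first no-guide library.

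Each guide was also set against the same 4 control libraries, so the values that follow share their controls. Of the 31 members, 5 were called for guide 1, with 4 lower and 1 higher, beside 8.99% of all genes tested (4.03% lower, 4.96% higher). For guide 2, 6 were called, all lower, beside 14.5% (7.62% lower, 6.85% higher). PPAT changed by -0.58 with guide 1 and -0.48 with guide 2, GART by -0.46 and -0.45, ATIC by -0.24 and -0.33, and IMPDH2 by -0.26 and -0.41, all called in limma. PAICS (-0.26) and ADSL (-0.33) were called with guide 2 alone, beside -0.08 and -0.19 with guide 1. These contrasts used the mean of the control groups, and their spread left out the difference between the controls. PAICS had a mean of 104.8 RPKM with guide 2, 111.4 RPKM without a guide and 142.0 RPKM under the non-targeting guide. For ADSL the same means were 22.84, 25.95 and 32.1 RPKM, so both calls drew largely on the higher non-targeting level. RRM1 was called higher with guide 1 (0.24, adjusted p = 0.0444), beside 0.09 with guide 2, and it lost the call whichever of the 6 libraries was left out (adjusted p between 0.0577 and 0.247). No member differed between the guides in limma, while 2 had an unadjusted p under 0.05 and 0.0286% of all genes tested were called (0.00715% lower, 0.0215% higher). For PAICS, the largest difference between the guides in the ring, guide 2 lay below guide 1 by -0.18 ± 0.05 (SE; adjusted p = 0.268). Without the first library of guide 1 none of the 31 members was called for guide 1. There PPAT had an adjusted p of 0.0752 and GART one of 0.0501. ATIC with guide 1 lost its call whichever of the 6 libraries was left out, and IMPDH2 with guide 1 kept it in 1 of 6. ADSL with guide 2 was called in 1 of 6 such fits, and PPAT with guide 2 was lost without the second library of guide 2 (adjusted p = 0.118). ATIC with guide 2 was lost without the first library of guide 2 (adjusted p = 0.0593).

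At the branch from IMP to GMP, IMP dehydrogenase is encoded by a pair of genes. IMPDH2, the form known to be induced in growing cells, had 92.2 and 90.3 RPKM without a guide, 100.2 and 89.7 RPKM under the non-targeting guide, 74.0 and 80.9 RPKM under guide 1 and 70.6 and 68.7 RPKM under guide 2. All e3 libraries were below all controls, and IMPDH2 fell by 0.34 ± 0.07 (limma, adjusted p = 0.0258), to a mean that was 0.790 of that in the controls. It kept the call in 3 of the 8 fits that left out 1 library and lost it without the first no-guide library, the first non-targeting library, the first library of guide 1 or either library of guide 2 (adjusted p up to 0.0864). IMPDH1 lay between 29.2 and 34.0 RPKM in all 8 libraries with overlapping groups (-0.06, 95% interval -0.21 to 0.08). The log2 ratio of IMPDH2 to IMPDH1 (RPKM + 1) was 1.43 to 1.57 in the controls and 1.10 to 1.32 in the e3 libraries, without overlap. Its difference of -0.27 had an exact two-sided permutation p of 0.0286, the smallest that 70 arrangements of the 8 libraries can give. The adjusted p was 0.143 over the 5 ratios tested. The test takes the 8 libraries as exchangeable although they form 4 groups of 2, so its p-values do not allow for that grouping. GMPS, which makes GMP, had 18.6 to 22.6 RPKM over the 8 libraries and a change of -0.07. ADSS, which directs IMP towards AMP, had 20.5 to 27.7 RPKM and a change of -0.15, and neither passed.

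PPAT and PAICS start beside each other, and their ratio was compared for that reason. The log2 ratio of PPAT to PAICS was -2.15 and -2.12 in the no-guide libraries, -2.34 and -2.50 in the non-targeting ones, -2.83 and -2.73 under guide 1, and -2.39 and -2.61 under guide 2. Guide 1 and no guide were farthest apart, and the non-targeting and guide 2 libraries overlapped. The e3 mean minus the control mean was -0.36, which did not pass (exact two-sided permutation p = 0.0571, adjusted p = 0.143). For the other pairs of related enzymes the differences were 0.26 for RRM2 to RRM2B (exact permutation p = 0.114), -0.09 for MTHFD1 to MTHFD1L (0.657) and -0.04 for PRPS2 to PRPS1 (0.8). With 70 arrangements 1 ratio alone cannot go below an adjusted p of 0.143, so the adjusted values say little.

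**Figure D3:**
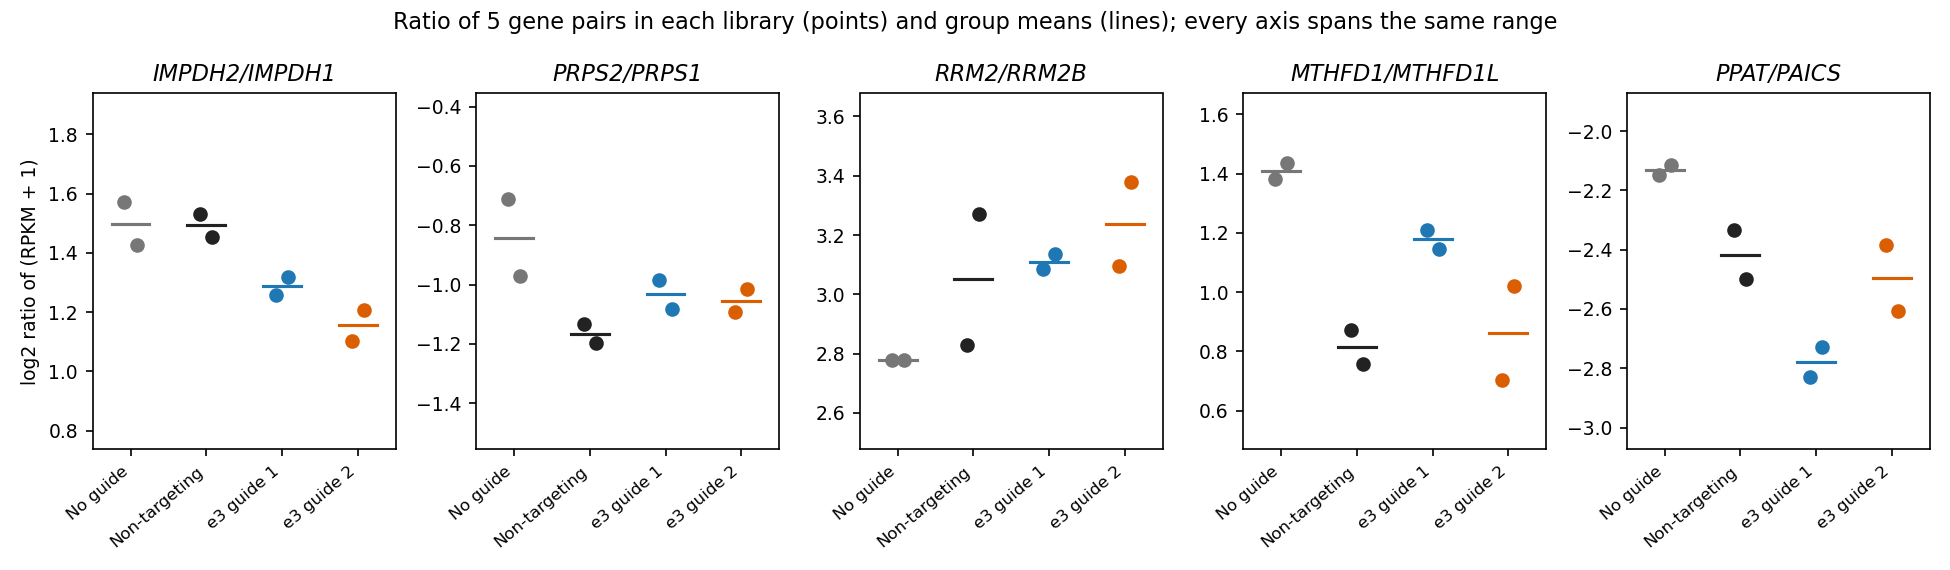
Log2 ratio of RPKM + 1 (y axes, each spanning the same range) for 5 pairs of genes in the 4 groups, 1 point per library and a line at each group mean. The e3 points of IMPDH2/IMPDH1 lie below all control points, and those of PPAT/PAICS overlap the non-targeting points.

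The enzymes that supply PRPP followed another pattern. PRPS1 had 56.1 and 56.2 RPKM without a guide, 76.8 and 78.2 RPKM under the non-targeting guide, 72.6 and 71.5 RPKM under guide 1 and 71.6 and 69.3 RPKM under guide 2. The no-guide libraries were low and the other 6 high, and the e3 libraries differed from the non-targeting ones by -0.12 (limma, adjusted p = 0.223). PRPS2 stood between 28.2 and 36.2 RPKM and did not pass in any comparison.

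In pyrimidine synthesis all 4 genes had negative changes against both controls, and none passed. Their median change was -0.16, beside -0.27 for the ring genes. Against no guide alone the medians were -0.18 and -0.17, so the pyrimidine changes were not smaller there. CAD, whose protein carries the first 3 steps, had 24.8 and 25.5 RPKM without a guide, 24.5 and 26.2 RPKM under the non-targeting guide, 21.2 and 19.8 RPKM under guide 1 and 24.5 and 21.2 RPKM under guide 2. The first library of guide 2 lay within the controls and the other 3 e3 libraries below them (-0.21, limma, adjusted p = 0.145). DHODH, the mitochondrial step, had 7.40 to 8.62 RPKM in the controls and 6.46 to 7.76 RPKM with the e3 guides (-0.19). UMPS, which completes UMP, and CTPS2, which makes CTP, had changes of -0.12 and -0.11. All 4 genes were called in none of the 7 comparisons. Their 95% intervals for the e3 guides against the controls reached from -0.40 to 0.12, so falls as large as that of ATIC lie within them.

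Of the 5 genes of deoxynucleotide supply, 4 had positive changes against both controls and none was called. Ribonucleotide reductase joins the large subunit RRM1 with the small subunit RRM2, which is known to be limiting in S phase, or with the p53-induced RRM2B. RRM1 had 41.4 and 38.8 RPKM without a guide, 40.4 and 39.5 RPKM under the non-targeting guide, 45.6 and 49.4 RPKM under guide 1 and 42.9 and 42.2 RPKM under guide 2. All e3 libraries were above all controls, as in 7.58% of genes tested, and the change of 0.16 did not pass (limma, adjusted p = 0.189). RRM2 had 43.9 and 44.7 RPKM without a guide and 52.0 to 60.7 RPKM in the other 6 libraries, with no difference called against the non-targeting guide (0.04, adjusted p = 0.8). RRM2B lay between 4.56 and 6.46 RPKM with overlapping groups.

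TYMS, the gene of thymidylate synthase, had 110.4 to 121.7 RPKM in the controls and 115.5 to 145.2 RPKM with the e3 guides, and TK1, the salvage kinase for thymidine, 106.8 to 120.4 and 111.5 to 130.1 RPKM. Their changes of 0.14 and 0.10 did not pass. The levels of TYMS and SAMHD1 per length are uncertain, because the model lengths inferred from their values were 599 and 2122 bases, against 2470 and 11261 exon bases in GENCODE 29. Other members had inferred lengths well below their exon bases too, among them PAICS (3539 against 7517), ADSL (2778 against 7111) and UMPS (3100 against 7579). The antisense gene ENOSF1 overlaps TYMS, so reads of the pair cannot be separated where the strand setting is unknown. The same holds for RRM1 and RRM1-AS1. Processed pseudogenes of PPAT, IMPDH1, PRPS1, RRM2 and DUT are listed in the table and could take some of their reads, IMPDH1P10 being the highest at 2.35 to 5.45 RPKM.

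Among the enzymes that clean the pool, SAMHD1, which degrades deoxynucleotide triphosphates, had 13.8 and 10.8 RPKM without a guide, 14.1 and 20.0 RPKM under the non-targeting guide, 21.0 and 21.0 RPKM under guide 1 and 18.8 and 19.7 RPKM under guide 2. The second non-targeting library lay among the e3 libraries, and the first lay above both no-guide libraries and below all e3 libraries. The change of 0.46 against both controls did not pass (limma, adjusted p = 0.112), and without the second non-targeting library it was 0.61 and passed (adjusted p = 0.0215). DCTPP1, a dCTP-degrading enzyme, had 43.2 to 46.3 RPKM without a guide, 57.5 and 59.9 RPKM under the non-targeting guide and 35.7 to 49.3 RPKM with the e3 guides. Its change against the non-targeting guide was -0.43 (adjusted p = 0.0687). DUT, which removes dUTP, and NUDT1, which removes oxidized purine nucleotides, had changes of -0.03 and -0.18 against both controls. NUDT1 rested on the fewest reads, 45 to 113 a library.

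**Figure D4:**
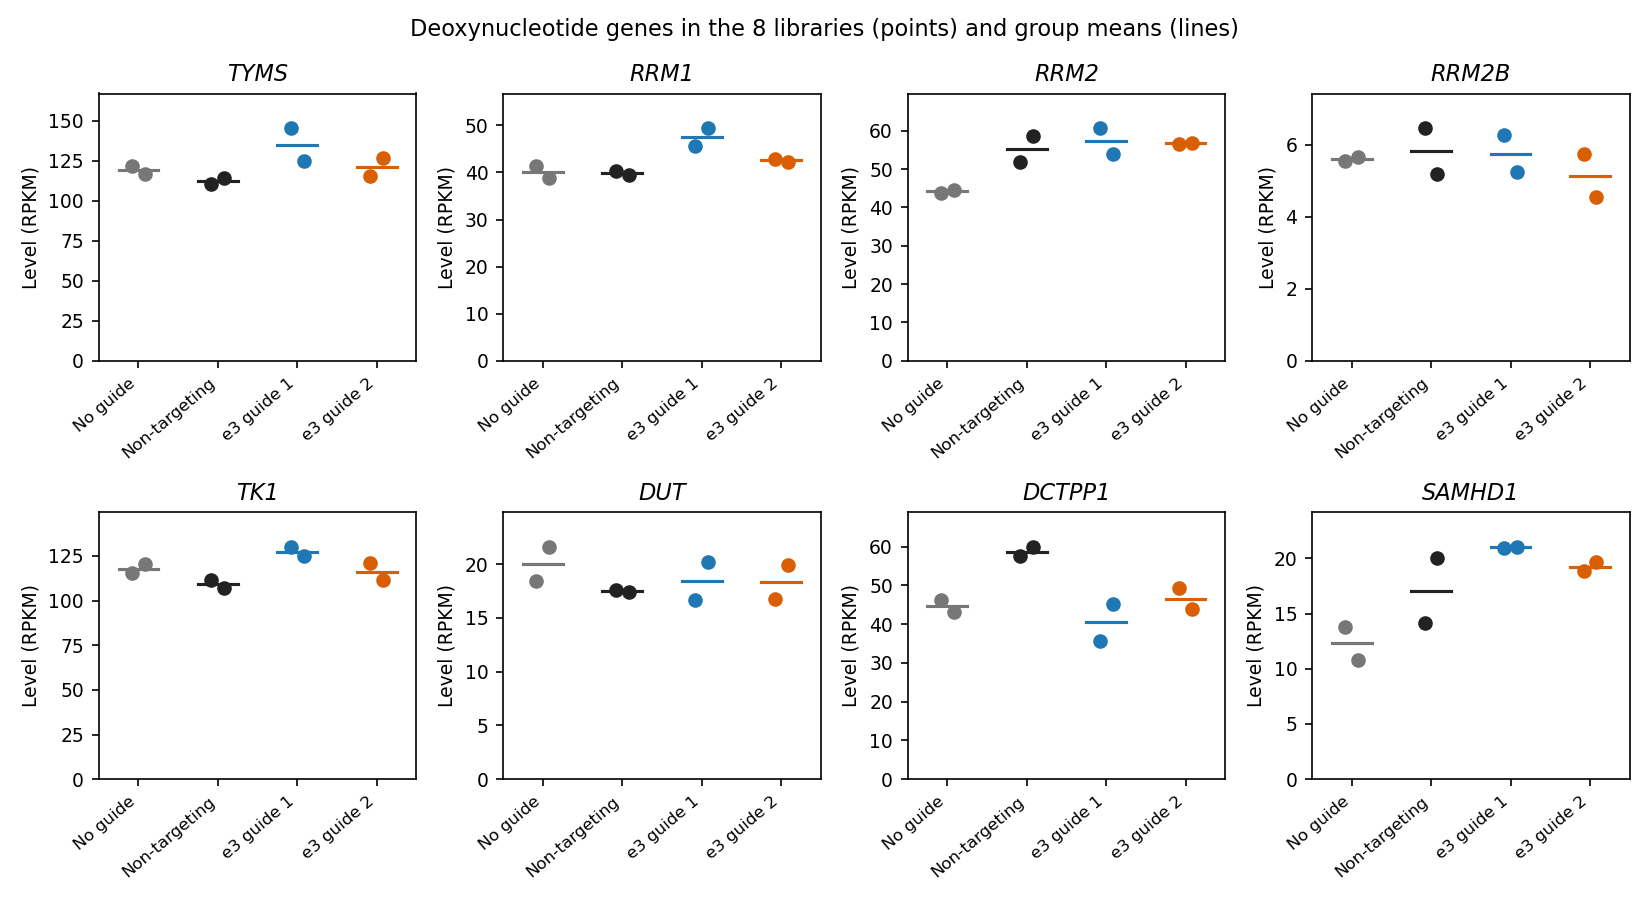
RPKM levels (y axes, from 0) of 8 genes of deoxynucleotide supply and pool cleaning in the 4 groups, 1 point per library and a line at each group mean. The e3 points of RRM1 lie above all control points, the no-guide points of RRM2 lie below all others, and 1 non-targeting point of SAMHD1 lies among the e3 points.

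Of the kinases, CMPK1 (UMP and CMP) had 41.8 to 50.1 RPKM in the controls and 46.4 to 56.5 RPKM with the e3 guides (0.16). GUK1 (GMP) had 21.1 and 22.0 RPKM without a guide and 25.4 to 31.03 RPKM in the other 6 libraries. DTYMK (dTMP) had 46.0 to 57.4 and 41.7 to 55.2 RPKM with a change of -0.05. None of the 3 passed against both controls or against the non-targeting guide.

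The folate genes split by control. SHMT1, the cytosolic serine hydroxymethyltransferase, had 23.4 and 22.5 RPKM without a guide, 15.9 and 14.1 RPKM under the non-targeting guide and 15.1 to 17.7 RPKM with the e3 guides, so the no-guide libraries alone were high. MTHFD1, the cytosolic trifunctional enzyme, had 26.8 to 30.8 RPKM in the controls and 21.7 to 28.0 RPKM with the e3 guides (-0.14). MTHFD1L, the mitochondrial formate-releasing enzyme, had 11.2 and 10.5, then 14.7 and 15.5 RPKM in the controls and 11.3 to 13.1 RPKM with the e3 guides, between the 2 controls.

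Related genes outside the 32 were taken from 3 lists. Of 16 other folate genes tested, 1 was called lower against both controls, beside 2.58% of all genes tested. Against the non-targeting guide 2 were called lower, beside 3.54%. SHMT2, the mitochondrial counterpart of SHMT1, went from 43.7 and 43.3 RPKM (non-targeting) and 38.8 and 39.3 RPKM (no guide) to 29.9 to 33.3 RPKM in the e3 libraries. It fell by 0.37 (limma, adjusted p = 0.0182), and MTHFD2, which follows it in mitochondria, fell by 0.32 against the non-targeting guide (adjusted p = 0.0183). Without a guide MTHFD2 had 59.5 and 69.9 RPKM, and its e3 values of 58.2 to 61.2 RPKM overlapped these. MTRR and FTCD, with changes of -0.31 and 0.32, did not pass. Of 21 other purine genes tested, 1 rose and 1 fell against both controls, beside 2.63% of all genes tested called higher and 2.58% lower. AHCY, which clears S-adenosylhomocysteine, fell by 0.36 (adjusted p = 0.0106). XDH, which degrades purines to uric acid, had 1.24 and 0.746 RPKM without a guide, 5.46 and 4.67 RPKM under the non-targeting guide and 7.79 to 11.03 RPKM in the e3 libraries. The controls were thus far apart, and XDH rose by 1.59 against both together (limma, adjusted p = 0.0484), by 0.78 against the non-targeting guide (adjusted p = 0.0204) and by 2.40 against no guide (adjusted p = 9.1e-05). Against the non-targeting guide 3 of these 21 genes were called lower and 1 higher, beside 3.54% and 3.3% of all genes tested. The salvage gene APRT (-0.49) and AHCY (-0.35) were among the 3 that fell. Without a guide APRT had 64.9 and 80.2 RPKM, and its e3 values of 57.1 to 66.2 RPKM reached into that range. GMPR, with -0.59, did not pass against both controls (limma, adjusted p = 0.0604).

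Of 20 other pyrimidine genes tested, none was called against both controls in limma and 5 had an unadjusted p under 0.05, TYMP with the largest change (1.41, adjusted p = 0.0587). Against the non-targeting guide 2 rose, TYMP (0.62) and DPYD (0.52), which degrade pyrimidines. In the same comparison 2 fell, the uridine kinase gene UCK2 (-0.45) and the nucleoside transporter gene SLC29A1 (-0.73). All e3 values of UCK2 (at most 13.7 RPKM) were below its lowest control value (15.2 RPKM). For SLC29A1 the highest e3 value, 5.86 RPKM, exceeded the lowest no-guide value, 5.83 RPKM, so these groups overlapped. Against no guide neither gene passed (limma, UCK2 -0.19, adjusted p = 0.153, and SLC29A1 -0.13, adjusted p = 0.53). Over all genes tested 5.2% were called against both controls. Against the non-targeting guide 3.3% were called higher and 3.54% lower. TYMP stood at 5.31 and 6.26 RPKM without a guide, at 18.7 and 20.0 RPKM under the non-targeting guide and at 28.5 to 33.3 RPKM in the e3 libraries. DPYD stood at 5.78 and 6.14 RPKM without a guide, and at 3.11 and 3.40 RPKM under the non-targeting guide, beside 4.73 to 5.47 RPKM in the e3 libraries.

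Cell cycle genes were counted for comparison. Of 12 genes of G2 and mitosis, 5 fell against both controls, beside 2.58% of all genes tested (CCNB1, PLK1, CDC20, MKI67 and AURKA, by 0.42, 0.45, 0.33, 0.28 and 0.32; median of the list -0.28). Of 20 S phase genes none was called in limma, 1 had an unadjusted p under 0.05 (CLSPN, 0.22), and the median was 0.03. Against the non-targeting guide 1 of the 20 rose, CCNE2 (0.74), and 4 of the 12 fell, beside 3.3% of all genes tested called higher and 3.54% lower. CCNE2 stood at 10.8 and 9.02 RPKM without a guide and at 5.35 and 4.42 RPKM under the non-targeting guide. Its e3 values of 6.91 to 10.4 RPKM were not above the no-guide level. The part of cell cycle genes in the changes of the nucleotide genes was not tested. In bulk RNA, fewer cells in a phase and less RNA per cell cannot be told apart.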

How the data were processed

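RNA of 8 libraries was analysed. The authors deposited RPKM values for 52576 genes, with 1 column per library. Cufflinks and hg19 appear, with no role, in the submitters' processing notes. Aligner, counting, strand setting and annotation are not given in the sources used here. In 99.5% of genes tested the RPKM steps fitted whole reads (tolerance 0.03 reads), which with GENCODE 29 lengths gave the inferred depths and reads.

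Tests used limma 3.58.1 in R 4.3.3 (variance trend, two-sided) on log2(RPKM + 1) of the deposited values, keeping genes whose mean reached 1 RPKM, with Benjamini-Hochberg adjustment over all genes tested and calls at an adjusted p under 0.05. Such fold changes understate the change of low genes. The e3 guides were compared with both controls in a model with 2 groups and with each control over 6 libraries, and other comparisons used a model with 4 groups. Fits were checked on simulated data without differences between the controls or between the guides. That check therefore does not cover such differences. Ratios were compared by an exact permutation test over 70 arrangements, which takes the 8 libraries as exchangeable. The members, lists and tests were chosen with earlier results of these data known. Named were all members, MYC, and of each other list the genes called against both controls or the non-targeting guide, with up to 3 others by smallest p, some of which are not described, and 1 gene named by this rule is not reported here. Alternatives were a pseudocount of 0.1, no filter, a minimum mean of 5 RPKM, median-ratio scaling, a replicate block, correlation or means within groups, and leaving out each library. Promoter windows are RefSeq's (GRCh38.p14), matched by symbol for 29 members, ADSS as ADSS2, and no hg19 coordinates are given.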

Additional observations from a re-analysis of the deposited data

Results flagged for a closer look

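In 3 of 62 sets of 4 libraries (members within the controls or within the e3 guides) 1 library lay farther from the other 3 than Dixon's 95% critical value allows, and chance alone gives about 1 in 20. PRPS2 was low in the second no-guide library (28.2 RPKM, against 33.5 to 34.4 RPKM in the other controls). CTPS2 was low in the second non-targeting library (7.17 RPKM, against 8.66 to 8.77 RPKM). MTHFD1 was low in the first library of guide 2 (21.7 RPKM, against 27.5 to 28.0 RPKM in the other e3 libraries). None of the 3 genes was called in any comparison over all libraries, and MTHFD1 was called lower for guide 2 (-0.39) when the second library of guide 2 was left out.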

How the results depend on the processing

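No call was reversed among 2464 values of members and MYC under the alternatives, of which 2330 kept their side of the threshold, 118 lost a call and 16 gained one. For the e3 guides against both controls, where 727 genes and 4 members were called, no filter gave 406 genes, an estimated correlation within groups 256 genes and 2 members (PPAT and GART), and group means as samples 1 gene and 0 members. Against the non-targeting guide (956 genes, 6 members) no filter gave 379 genes and 1 member. For guide 1 (1257 genes, 5 members) no filter gave 2 members and a minimum mean of 5 RPKM gave 8. For guide 2 against guide 1 (4 genes) these gave 9 and 24 genes. The causes were not tested.

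With the replicate block, 387 genes and 2 members were called against both controls, 597 genes and 3 members against the non-targeting guide, 2 members for guide 1, and 1 gene between the guides. The correlations of replicate differences between groups ran from -0.022 to 0.014, so no shift shared by libraries of the same replicate number was seen. This does not show whether libraries of the same number were prepared together.

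Leaving out 1 library gave 180 to 580 genes and 2 to 4 members for both controls, 6 to 808 genes and 0 to 6 members for the non-targeting guide, 945 to 2023 genes and 2 to 8 members for no guide, 461 to 961 genes and 0 to 4 members for guide 1, 885 to 1583 genes and 5 to 6 members for guide 2, 0 to 1 genes between the guides, and 872 to 1040 genes and 2 to 4 members between the controls. A group left with 1 library is assumed to vary like the others. Depth limits NUDT1 and DHODH most, with 45 and 74 inferred reads at the lowest.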
